A study of Homo sapiens with 2 samples.

Results

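Among tumour cells of OVCAR5, an established human ovarian carcinoma line, some cells showed genes typical of an interferon response together with genes typical of tumour necrosis factor (TNF), and others showed the TNF genes with little of the interferon response. They are called here double-response and TNF-type-only cells. These names describe the RNA and not a treatment. A cell was assigned to a population by its pair of hashtags, antibody-bound barcodes that marked its tumour. The pair was the 2 most abundant of hashtags HTO2 to HTO9, with the second at 20 counts or more and at 4 times the third or more. HTO2+HTO8 (185 cells) and HTO2+HTO9 (241 cells) formed the double-response side, and HTO2+HTO6 (371 cells) and HTO2+HTO7 (352 cells) the TNF-type-only side. The 4 populations held 1149 of the 2994 cells with a pair, of 3611 barcodes with 500 genes or more and at most 20% mitochondrial molecules, and of 9083 barcodes in all. The sides were picked on CXCL9, IDO1, IRF1 and CD274 and on the TNF-type genes themselves, so every level below is a description, and no test was made between them.

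The tumour cells carried an IFNy-sensing reporter (IFNy and IFNg both stand for interferon gamma) and the fluorescent marker CFP, grew in NSG-B2m-/- mice, and were sorted as CFP+ bystander cells from a pool of 13 tumours. The labels list the pool as follows: 2 tumours injected with both cytokines (TNFa at 10 and IFNy at 100 ng/ml) and taken at 6 h, 3 injected with TNFa alone (10 ng/ml) and taken at 6 h, 3 injected with IFNy alone (100 ng/ml), of which 2 were taken at 24 h and 1 at 48 h, and 5 unexposed tumours, of which 2 were taken at 6 h, 2 at 24 h and 1 at 48 h. The treatment fields of the gene expression and hashtag libraries each name 1 condition, which is at odds with this pool. The labels do not map pairs to tumours, and no population is tied here to a treatment, a time or an animal. Mice of this kind lack mature T, B and NK cells, and the deposited counts are on human genes only.

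All cells came from 1 pooled droplet library, in which 0 barcodes were listed more than once. The 4 populations were similar in depth, with median molecule (UMI) counts of 9147 and 9431 per double-response cell, against 8768 and 8851.5 per TNF-type-only cell. Summed over cells, HTO2+HTO8 held 1850271 UMIs and HTO2+HTO9 held 2577430, while HTO2+HTO6 held 3667467 and HTO2+HTO7 held 3561033. The median mitochondrial share was 15.3% and 14.3% in double-response populations and 14.8% and 14.4% in TNF-type-only populations. At least 3 of 10 epithelial markers were found in 96.2% and 91.7% of double-response cells and in 92.7% and 96.0% of TNF-type-only cells. In none of the 4 populations did any cell carry 3 markers of fibroblasts, endothelium, T cells, B cells, neutrophils or erythroid cells (0 cells each). For B cells, neutrophils and erythroid cells, 3 listed markers had no UMI in the 4 populations, and too few were left for any cell to carry 3. Counts are on human genes, so these zeros do not address mouse cells. Cells with 3 macrophage or monocyte markers numbered 3 and 4 against 1 and 1. A sum alone cannot tell more responding cells from more RNA per cell, for which shares and levels of single cells are given too. Levels below are UMIs per 1000000 (CPM) of a population, always with HTO2+HTO8 before HTO2+HTO9 and HTO2+HTO6 before HTO2+HTO7, and their 95% intervals are exact Poisson intervals that cover counting error only.

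As background, IFNg acts through its receptor, the kinases JAK1 and JAK2 and STAT factors, which induce IRF1. These factors then switch on chemokines that attract T cells, guanylate-binding proteins and the genes of antigen presentation. TNF acts through its receptors to free NF-kB from its inhibitors. NF-kB induces chemokines for neutrophils and monocytes, adhesion molecules, survival genes and its own inhibitors.

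The double-response cells had the interferon programme beside TNF-type genes of which most passed neither threshold below, and the largest additions were chemokines, guanylate-binding proteins, IDO1 and antigen presentation genes. A gene was called higher when both double-response populations had at least 2 times the CPM of both TNF-type-only populations, so that the weakest of the 4 ratios was 2 or more, and lower when all 4 ratios were 0.5 or less. Sums under 3 UMIs were set to 3. Of 11514 genes with 30 UMIs or more over the 4 populations, 161 (1.4%) were called higher and 100 (0.869%) lower. The median log2 ratio of all measured genes, double-response over TNF-type-only, was -0.10. The populations did not overlap, with both double-response values above, for 17.1% of genes and, with both below, for 33% of genes. Within a side, HTO2+HTO8 was at 2 times HTO2+HTO9 or more for 2.54% of genes and at 0.5 times or less for 4.38%, and HTO2+HTO6 was at 2 times HTO2+HTO7 or more for 1.09% and at 0.5 times or less for 1.46%. A single ratio of 2 was therefore more frequent inside the double-response side than a call between the sides, which needs all 4 ratios.

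The higher genes rested on more molecules than the lower ones. Their median was 363 UMIs over the 4 populations, against 70 UMIs for the lower genes. The weakest ratio was 4 or more for 49 of the higher genes and 10 or more for 11, and 0.25 or less for 2 of the lower genes. Together the higher genes made up 4.94% and 4.20% of all UMIs in double-response cells, against 0.998% and 0.983% in TNF-type-only cells. At the threshold, CYTOR (2.02) and LRRC56 (2.03) were just called higher, and MIR503HG (1.996), PLEKHF1 (1.99) and DDX58 (1.99) were not. SLC29A4 (0.498), KLK6 (0.498) and SLC25A40 (0.497) were just called lower, and ANKZF1 (0.503), CHDH (0.505) and NOX5 (0.507) were not. With scale factors from the trimmed mean of M values in place of total UMIs, 198 genes were higher and 69 lower, so that 74.2% of calls were higher, against 61.7% with total UMIs. The lower count grew when 1 population was left out and fewer ratios had to pass, to 271 without HTO2+HTO8, 500 without HTO2+HTO9 and 158 without HTO2+HTO6.

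**Figure D1:**
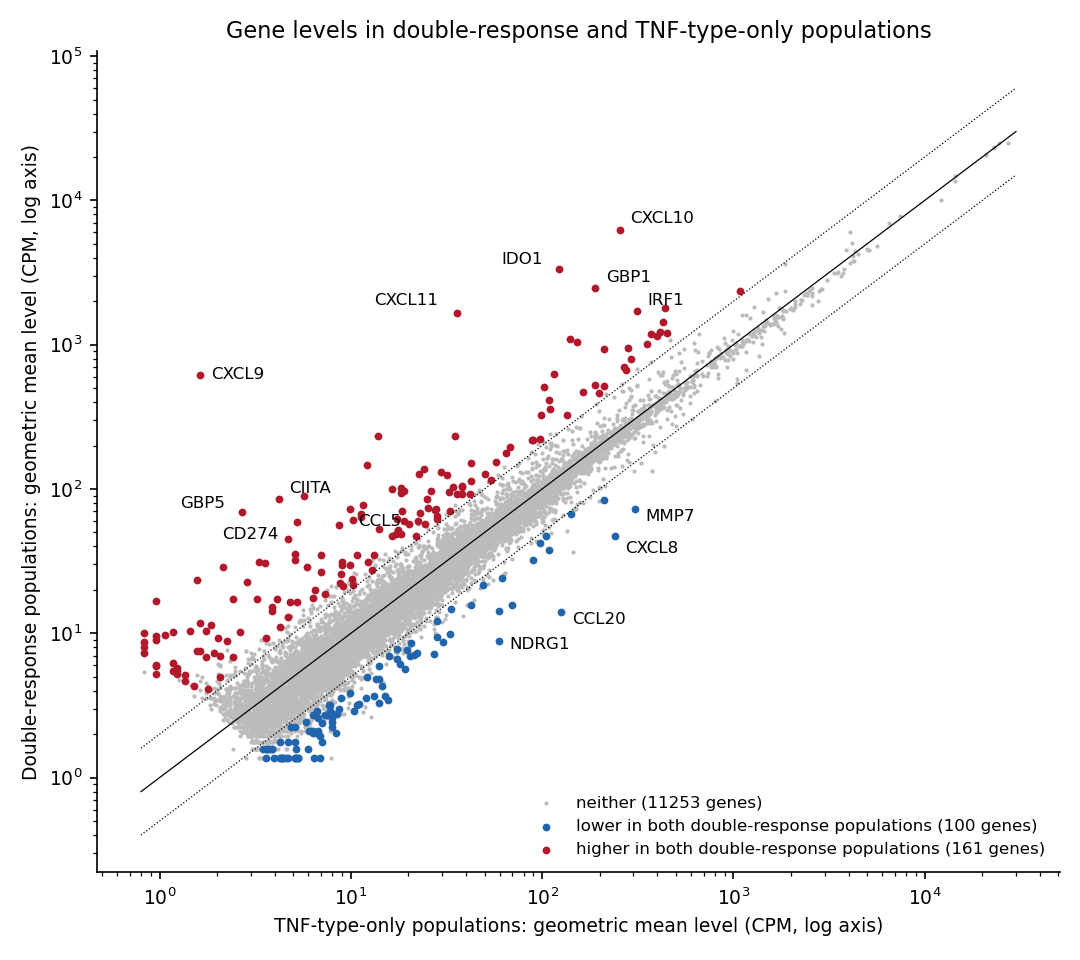
Geometric mean level of each measured gene (CPM, log axes) in the 2 double-response populations (vertical) against the 2 TNF-type-only populations (horizontal), with 161 genes called higher in red and 100 called lower in blue. The solid line marks equal levels and the dotted lines a ratio of 2 and of 0.5. CXCL9 stands farthest above the line, and NDRG1 and CCL20 far below it.

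The 4 genes that chose the double-response side are given as its description. CXCL9, a chemokine for T cells that carry CXCR3, had 821 and 469.8 CPM in double-response cells, against 1.91 and 1.40 CPM in TNF-type-only cells, and the Poisson intervals were 780.2 to 863 and 444 to 497 against 0.767 to 3.93 and 0.456 to 3.28. Its weakest ratio was 246, with a counting interval of 119 to 614 because few UMIs stood on the TNF-type-only side. IDO1, which breaks down tryptophan, had 4494 and 2528 CPM in double-response cells, against 121 and 124 CPM in TNF-type-only cells. The weakest ratio of IDO1 was 20.3 (interval 18.5 to 22.4), and HTO2+HTO8 was above HTO2+HTO9. CD274, the checkpoint ligand PD-L1, had 57.3 and 60.5 CPM in double-response cells, against 5.18 and 5.34 CPM in TNF-type-only cells, at a weakest ratio of 10.7 (interval 6.55 to 18.5). IRF1, the interferon-induced transcription factor, had 1515 and 1917 CPM in double-response cells, against 354 and 275 CPM in TNF-type-only cells, at a weakest ratio of 4.28 (interval 4.005 to 4.57), and 2 of the 4 genes, IRF1 and IDO1, were above 100 CPM in TNF-type-only cells. In the GENCODE annotation of GRCh38 the genes lie at chr4:76001275-76007488 (CXCL9), chr8:39902275-39928444 (IDO1), chr9:5450503-5470566 (CD274) and chr5:132481609-132490798 (IRF1).

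In single cells the markers differed in how many cells carried them. A CXCL9 UMI was found in 73.5% and 51.0% of double-response cells (exact Clopper-Pearson intervals 66.5 to 79.7% and 44.5 to 57.5%), against 1.89% and 1.42% of TNF-type-only cells (intervals 0.762 to 3.85% and 0.463 to 3.28%). It was found in 2.69% of the 1338 cells of the 8 populations without HTO2, whose median depths ranged over 6434.5 to 9450 UMIs, so the share in TNF-type-only cells was at or below that background. Those populations include HTO4+HTO8 and HTO4+HTO9, which showed interferon genes themselves. An IDO1 UMI was found in 97.3% and 88.0% of double-response cells and 41.5% and 34.9% of TNF-type-only cells, beside 32.5% without HTO2. For CD274 the shares were 35.1% and 34.0% against 5.12% and 5.11%, beside 6.05% without HTO2. An IRF1 UMI was found in 95.1% and 93.4% of double-response cells and 82.5% and 74.4% of TNF-type-only cells, beside 62.5% without HTO2. With every cell thinned to 4000 UMIs, which left out 6 and 8 double-response cells and 26 and 18 TNF-type-only cells, the CXCL9 shares were 64.2% and 39.9% against 0.580% and 1.20% and the CD274 shares 19.6% and 19.3% against 1.74% and 3.29%.

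The chemokines that bind CXCR3 stood together. CXCL10 had 6086 and 6480.1 CPM in double-response cells, against 281 and 229 CPM in TNF-type-only cells, and the weakest ratio was 21.6 (interval 20.3 to 23.1). CXCL11 had 2023 and 1352 CPM in double-response cells, against 37.9 and 34.3 CPM in TNF-type-only cells, at a weakest ratio of 35.7 (interval 30.1 to 42.6). HTO2+HTO8 was the higher of the double-response populations for CXCL9 and CXCL11 but not for CXCL10. CXCL10 differed from CXCL9 in its starting level. The populations without HTO2 had a median of 29.1 CPM of CXCL10, so TNF-type-only cells were already well above them, whereas their CXCL9 was below the median of 2.59 CPM there. The 3 genes are neighbours on chromosome 4, at chr4:76021117-76023497 (CXCL10) and chr4:76033682-76041415 (CXCL11) beside the CXCL9 position above.

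Of 37 measured members of the list of interferon chemokines, guanylate-binding proteins and transcription factors, 30 were called higher and 0 lower, beside 1.4% and 0.869% of all genes, and their median log2 ratio was 2.48 against -0.10 over all genes. Their summed level was 27608 and 23405 CPM in double-response cells and 3575 and 3383 CPM in TNF-type-only cells, beside a median of 1701 CPM without HTO2. The list holds the 4 marker genes and was chosen with these results known, so its count is no independent evidence of direction. Genes named here and below that the rule for named genes does not cover were chosen after their values were seen.

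The guanylate-binding proteins, large GTPases that attack vacuoles of intracellular microbes, were called higher as far as they were measured. GBP1 had 2580.2 and 2344 CPM in double-response cells, against 192 and 187 CPM in TNF-type-only cells, and GBP4 had 1128 and 1057 CPM in double-response cells, against 137 and 144 CPM in TNF-type-only cells. GBP5 had 82.2 and 57.8 CPM in double-response cells, against 3.27 and 2.25 CPM in TNF-type-only cells, and its weakest ratio of 17.7 was above those of GBP1 (12.2) and GBP4 (7.34). GBP3 had 811 and 775 CPM in double-response cells, against 317 and 266 CPM in TNF-type-only cells, with the smallest of these ratios at 2.45. GBP2 and GBP7 were called too, at weakest ratios of 3.58 and 5.24. These genes share sequence, so reads may be split between them and single values are uncertain.

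Among transcription factors, STAT2, which takes part in the type I interferon response, had 102 and 72.2 CPM in double-response cells, against 28.9 and 21.6 CPM in TNF-type-only cells, a weakest ratio of 2.50. BATF2 (4.81) and ETV7 (5.20) were also called higher. IRF8, a factor best known from myeloid cells, had 10.8 and 9.31 CPM in double-response cells and 0 UMIs in both TNF-type-only populations, which with a floor of 3 UMIs per population makes it at least 11.05-fold higher, before counting error. IRF9 (weakest ratio 1.13), IRF7 (1.00), STAT3 (1.29) and IRF2 (0.905) were not called. The interferon factors thus differed widely among themselves, with IRF1, IRF8 and BATF2 well over the threshold and IRF9, a partner of STAT2, near equality.

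**Figure D2:**
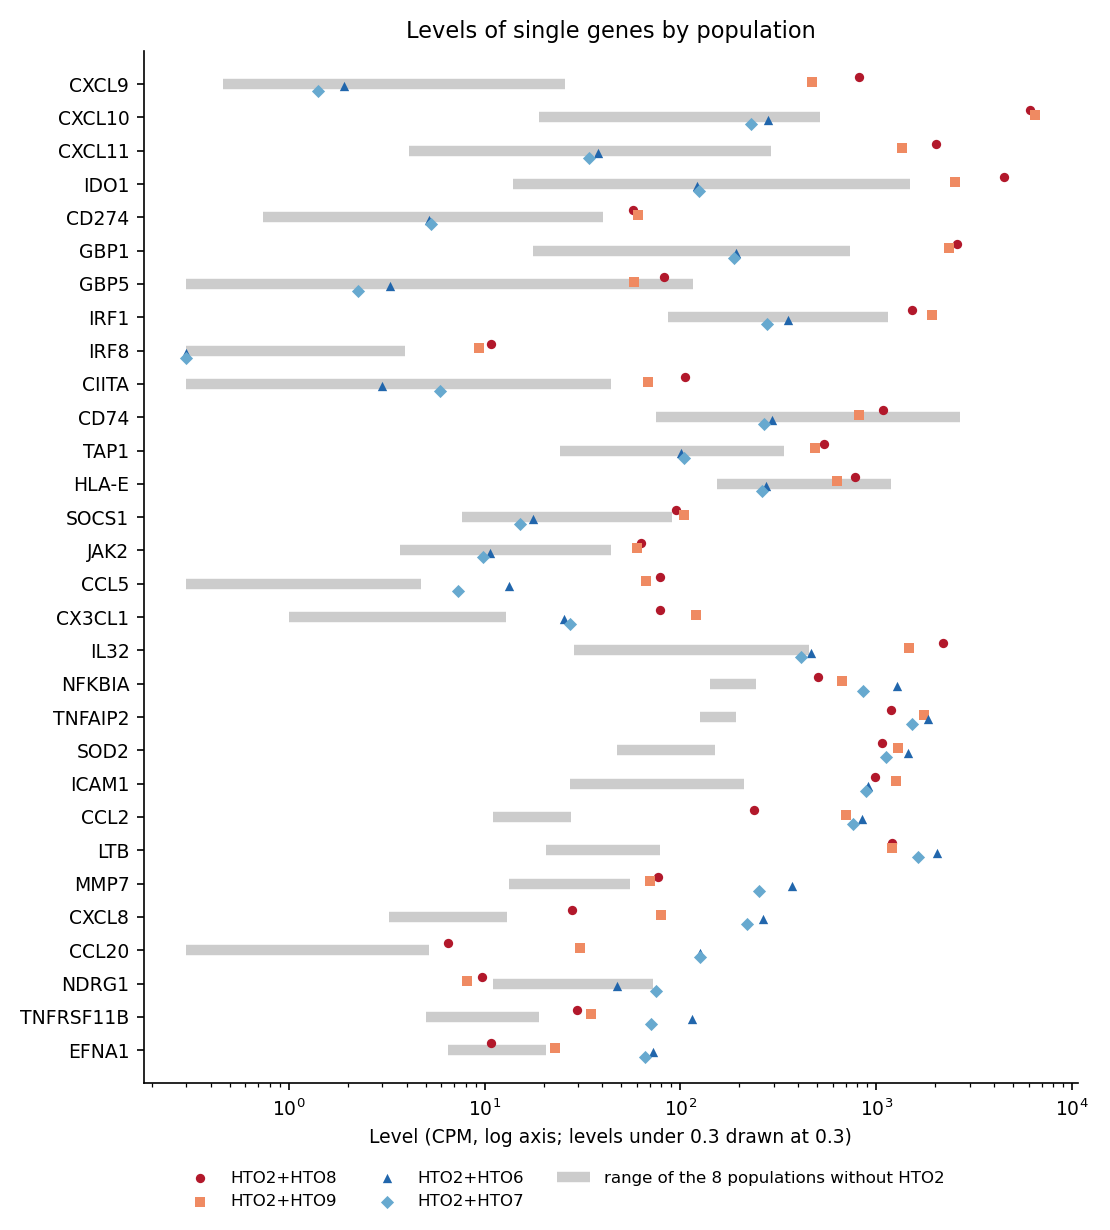
Level (CPM, log axis) of 30 genes in HTO2+HTO8, HTO2+HTO9, HTO2+HTO6 and HTO2+HTO7, with the grey bar giving the range of the 8 populations without HTO2. Interferon genes at the top have both double-response values to the right of both TNF-type-only values, such as CXCL10 at 6086 and 6480.1 CPM against 281 and 229 CPM. From NFKBIA to LTB all 4 values lie above the grey bars, and from MMP7 to EFNA1 both double-response values lie to the left of both TNF-type-only values.

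The MHC class II genes, which present peptides to CD4+ T cells and which the coactivator CIITA switches on, were all called higher (14 of 14 measured, beside 1.4% of all genes), with a median log2 ratio of 2.67. CIITA had 105 and 68.7 CPM in double-response cells, against 2.999 and 5.90 CPM in TNF-type-only cells, and the weakest ratio was 11.6 (interval 7.39 to 19.3). The chains themselves stood at lower ratios. HLA-DRA had 287 and 187 CPM in double-response cells, against 39.3 and 31.5 CPM in TNF-type-only cells, and CD74, the invariant chain, had 1088 and 816 CPM in double-response cells, against 292 and 267 CPM in TNF-type-only cells. HLA-DMA, which helps load peptides, had the smallest ratio of the 14 at 2.22. Summed, the list had 2059 and 1449 CPM in double-response cells and 435 and 397 CPM in TNF-type-only cells. HTO2+HTO8 was above HTO2+HTO9 for the sum, for CIITA and for each chain named. Without HTO2 the sum ranged over 134 to 5377 CPM, and CD74 reached 2444 and 2663 CPM in HTO4+HTO8 and HTO4+HTO9. HLA genes are near-identical copies in part, and single HLA values are uncertain.

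MHC class I and its peptide supply differed less. Of 19 measured members, 4 were called higher and 0 lower, beside 1.4% and 0.869% of all genes, yet 18 of 19 had both double-response values above both TNF-type-only values, beside 17.1% of all genes. The 4 were NLRC5, the class I counterpart of CIITA (36.8 and 34.1 CPM in double-response cells, against 5.45 and 4.77 CPM in TNF-type-only cells), TAP1 and TAP2, which carry peptides into the endoplasmic reticulum, and HLA-E, a ligand of NK cell receptors. TAP1 had 538 and 486 CPM in double-response cells, against 100.3 and 104 CPM in TNF-type-only cells, a weakest ratio of 4.67, and HLA-E had 781 and 629 CPM in double-response cells, against 273 and 262 CPM in TNF-type-only cells, a weakest ratio of 2.30. B2M, the small subunit shared by class I proteins, was under the threshold, with 6643 and 5529.5 CPM in double-response cells, against 4039 and 4128 CPM in TNF-type-only cells and a weakest ratio of 1.34. The immunoproteasome subunits PSMB9 (1.84), PSMB8 (1.69) and PSMB10 (1.58) lay closer to the threshold.

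Genes that type I and type II interferon share followed the same pattern. Of 40 measured, 11 were called higher and 0 lower, beside 1.4% and 0.869% of all genes. Both double-response values were above both TNF-type-only values in 39, beside 17.1% of all genes, and the median log2 ratio was 0.94. PARP14, a regulator of STAT signalling, had 1071 and 952 CPM in double-response cells, against 348 and 359 CPM in TNF-type-only cells, and ISG20, an exonuclease that degrades RNA, had 1378 and 1033 CPM in double-response cells, against 362 and 376 CPM in TNF-type-only cells. The antiviral IFIT2 and IFIT3 were called at weakest ratios of 2.49 and 2.36, while IFIT1 was not (1.12). ISG15, a ubiquitin-like protein, had 3952 and 3335 CPM in double-response cells, against 1823 and 1888 CPM in TNF-type-only cells, just under the threshold at 1.77. IFI27, the member with the most UMIs, had 5666 and 4569 CPM in double-response cells, against 4003 and 4353 CPM in TNF-type-only cells, at a weakest ratio of 1.05. That gene was as high in the populations without HTO2, with a median of 4723 CPM.

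Among feedback and receptor genes SOCS1 and JAK2 were called. SOCS1, which blocks JAK kinases, had 94.6 and 105 CPM in double-response cells, against 17.7 and 15.2 CPM in TNF-type-only cells, at a weakest ratio of 5.34, and it was the only 1 of 10 measured negative regulators that was called. JAK2 had 63.2 and 59.7 CPM in double-response cells, against 10.6 and 9.83 CPM in TNF-type-only cells, at 5.62, and was the only 1 of 14 measured receptors and proximal signalling genes that was called. Over all genes 1.4% were called higher, and 1 call per list is not read as a result about either list. JAK1 had 177 and 186 CPM in double-response cells, against 191 and 192 CPM in TNF-type-only cells. The chains of the IFNg receptor had lower values in double-response cells without passing the threshold: IFNGR2 had 73.0 and 91.6 CPM in double-response cells, against 163 and 154 CPM in TNF-type-only cells, and IFNGR1 had 50.8 and 61.7 CPM in double-response cells, against 116 and 92.1 CPM in TNF-type-only cells. Median levels without HTO2 were 56.7 CPM for IFNGR2 and 31.1 CPM for IFNGR1, so that both sides were above them. The TNF receptors TNFRSF1A (70.3 and 74.9 CPM in double-response cells, against 56.2 and 64.9 CPM in TNF-type-only cells) and TNFRSF1B (44.9 and 45.4 CPM in double-response cells, against 30.5 and 26.1 CPM in TNF-type-only cells) were not called.

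**Figure D3:**
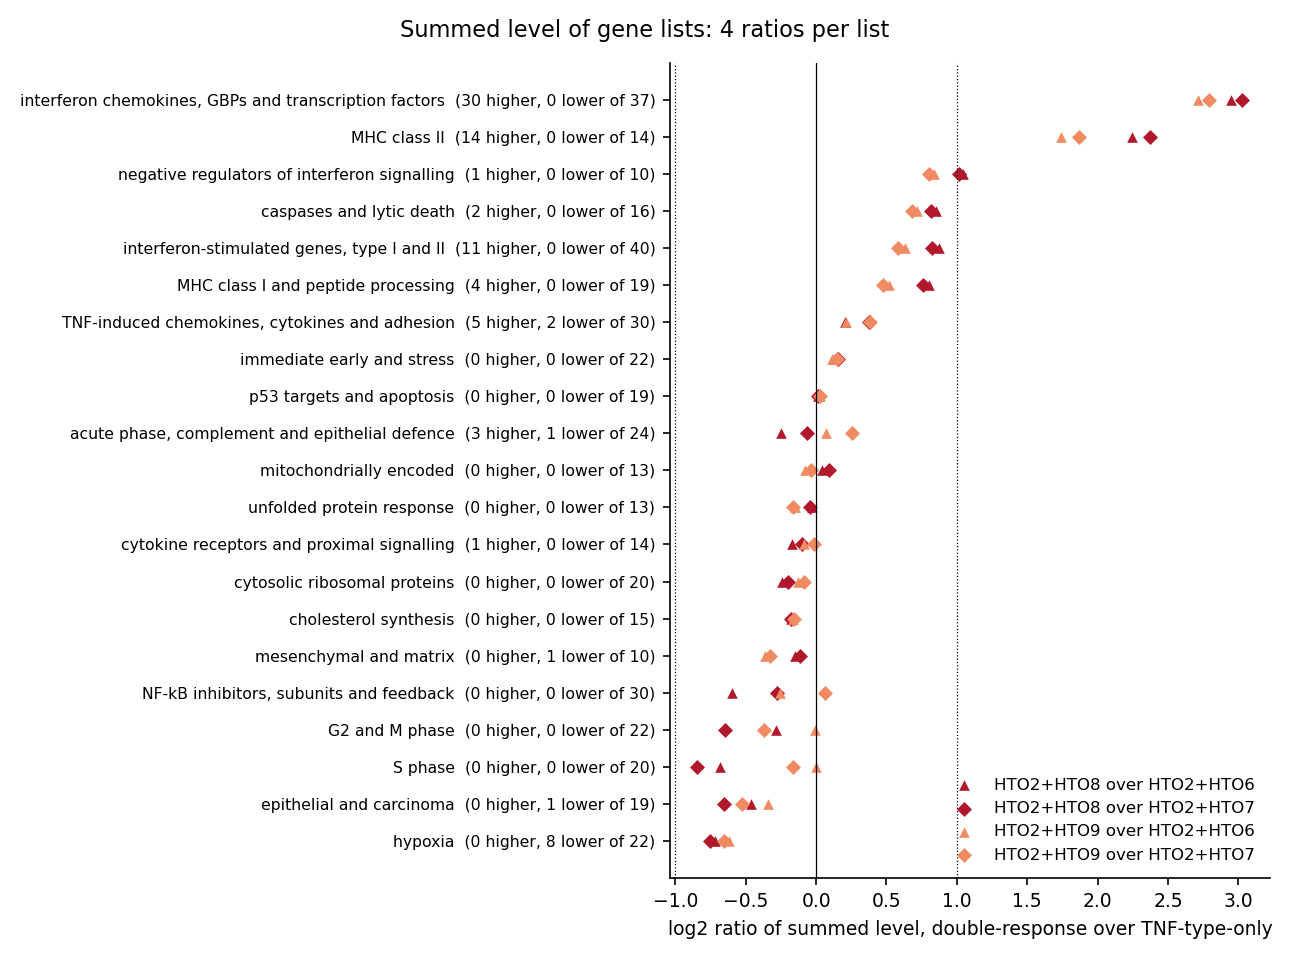
log2 ratio of the summed level of 21 gene lists, double-response over TNF-type-only, with 4 points per list for the 4 pairs of populations and the number of members called higher and lower beside each name. The dotted lines mark ratios of 2 and 0.5. The interferon chemokine list and MHC class II lie past the upper line in all 4 ratios. Lists are ordered by the ratio of means, which was lowest for hypoxia, where no ratio reached the lower line.

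The genes called higher were split by their level in TNF-type-only cells relative to the median of the 8 populations without HTO2. For 111 of the 161, both TNF-type-only populations were under 2 times that median, and these are called added. For 41, both were at 2 times it or more, and these are called raised further. Another 9 lay between. The floor enters the class of genes with few UMIs. GBP5, called added, had 3.27 and 2.25 CPM in TNF-type-only cells, beside a plain median of 1.32 CPM without HTO2. With the floor, its lower TNF-type-only level was 0.992 times the median. The class depends on the median: with the highest population without HTO2 in its place, 0 genes were raised further, since HTO4+HTO8 and HTO4+HTO9 showed interferon genes too. The added genes included CXCL9, GBP5, SOCS1, JAK2, TAP2, IFI16, SECTM1 and most HLA class II chains. The genes raised further included CXCL10, CXCL11, IDO1, IRF1, CD274, GBP1, GBP4, IL32, TNFSF10, ISG20, PARP14, CD74 and NNMT. For IDO1, double-response cells had 4494 and 2528 CPM and TNF-type-only cells 121 and 124 CPM, beside a median of 25.6 CPM without HTO2 and 1177 and 1486 CPM in HTO4+HTO8 and HTO4+HTO9. The class of CD274 rested on 19 UMIs in each TNF-type-only population. In the left-out barcodes the lower TNF-type-only level of CD274 was 1.42 times the median, under the 2 times asked for. NNMT, which methylates nicotinamide, had 2334 and 2386 CPM in double-response cells, against 1081 and 1078 CPM in TNF-type-only cells, beside a median of 501 CPM without HTO2. CIITA, BATF3, IL18BP and NEXN were among the 9 that lay between.

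Some TNF-type cytokine genes were among those raised further. CCL5, a chemokine for T cells and monocytes, had 78.9 and 66.3 CPM in double-response cells, against 13.4 and 7.30 CPM in TNF-type-only cells, at a weakest ratio of 4.97 and a median of 1.34 CPM without HTO2. IL32, an inflammatory cytokine, had 2198 and 1473 CPM in double-response cells, against 464 and 411 CPM in TNF-type-only cells. TNFSF10, the death ligand TRAIL, had 1504 and 1383 CPM in double-response cells, against 412 and 448 CPM in TNF-type-only cells, and TNFSF13B, the B cell factor BAFF, had 474 and 357 CPM in double-response cells, against 97.3 and 121 CPM in TNF-type-only cells. CX3CL1, a membrane-bound chemokine, had 78.4 and 119 CPM in double-response cells, against 25.4 and 27.2 CPM in TNF-type-only cells, and here HTO2+HTO9 was above HTO2+HTO8. These 5 were the members called higher, and CXCL8 and CCL20 the 2 called lower, of the 30 measured in the list of TNF-induced chemokines, cytokines and adhesion genes. Over all genes 1.4% were called higher and 0.869% lower. The median log2 ratio of that list was -0.41, while the ratio of its summed level was 0.29 on the log2 scale, so that the 2 summaries differed in sign.

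Part of the higher genes were high elsewhere in the library too. Of the 161, 100 were also at 2 times the median without HTO2 or more in both HTO4+HTO8 and HTO4+HTO9, populations that showed interferon genes without HTO2. The share of all measured genes was not counted for this rule or the next. Neither count is therefore read as a result about the higher genes, and the floor of 3 UMIs enters both. Set against all 9 other populations, a rule chosen after the values were seen, 22 genes had both double-response values at 2 times the highest other level or more. They included CXCL9, CXCL10 and CXCL11, GBP1 and GBP3, CX3CL1, CCL5 and IL32, the transcription factors BATF3 and IRF8, UBD (a ubiquitin-like modifier), GCH1 (which makes tetrahydrobiopterin) and HAPLN3 (a matrix link protein). CXCL9 had 25.6 and 11.8 CPM in HTO4+HTO8 and HTO4+HTO9, far below the 821 and 469.8 CPM of double-response cells. BATF3 had 35.7 and 29.1 CPM in double-response cells, against 4.64 and 5.62 CPM in TNF-type-only cells, and at most 3.09 CPM without HTO2. HAPLN3 had 267 and 204 CPM in double-response cells, against 18.0 and 10.7 CPM in TNF-type-only cells, and 32.3 and 36.6 CPM in HTO4+HTO8 and HTO4+HTO9. GBP5 and CD74, in contrast, reached similar or higher levels there, with 80.8 and 116 CPM of GBP5.

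A few higher genes are better known from immune cells. TYROBP, a signalling adaptor of myeloid cells, had 9.73 and 7.76 CPM in double-response cells, against 0.545 and 0.281 CPM in TNF-type-only cells, 41 UMIs over all 4. CD38, a surface enzyme of lymphocytes, had 11.9 and 5.43 CPM in double-response cells, against 0.273 and 0.562 CPM in TNF-type-only cells, 39 UMIs over all 4. The summed level of 10 macrophage or monocyte markers was 53.5 and 59.7 CPM in double-response cells and 61.9 and 72.5 CPM in TNF-type-only cells, and cells with 3 of these markers numbered 3 and 4 against 1 and 1, with C1QC and FCGR3A at 0. Neutrophil markers summed to 0.540 and 18.2 CPM against 0.273 and 0.562 CPM, with CSF3R, CXCR2 and S100A12 at 0. The cells had been sorted as CFP+ tumour cells, and whether immune cells had a part in the TYROBP and CD38 values was not tested.

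To follow the TNF-type programme, its genes were chosen in barcodes that the comparison had not used, those with over 20% and at most 50% mitochondrial UMIs, as genes with both TNF-type-only populations at 2 times the median without HTO2 or more. They are other cells of the same tumours in the same library. The floor of 3 UMIs applied to these levels and to the median too. This gave 285 of 9811 genes (2.9%). Read in the main cells, 37 of them (12.98%) were higher in double-response cells, 11 (3.86%) were lower and 237 were neither, beside 1.4% and 0.869% of all genes. The median log2 ratio was -0.11, against -0.10 over all genes. In 87 of the 285 both double-response values were above, and in 112 both were below, without overlap, beside 17.1% and 33% of all genes. When a TNF-type gene had to exceed the highest in place of the median of the populations without HTO2, which include interferon-type cells, 103 genes qualified, with 4 higher and 6 lower.

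Among TNF-type genes that passed neither threshold, differences were under 2-fold in at least 1 of the 4 ratios, yet many had both values of one side below both of the other. LTB, a TNF family ligand, had 1205 and 1204 CPM in double-response cells, against 2046 and 1643 CPM in TNF-type-only cells, beside a median of 40.3 CPM without HTO2. TNFAIP2, named for its induction by TNF, had 1194 and 1753 CPM in double-response cells, against 1835 and 1518 CPM in TNF-type-only cells, and SOD2, the mitochondrial superoxide dismutase, had 1071 and 1297 CPM in double-response cells, against 1459.9 and 1119.9 CPM in TNF-type-only cells. For both genes the HTO2+HTO8 value was the lowest of the 4 and HTO2+HTO9 lay among the TNF-type-only values. ICAM1, an adhesion ligand for leukocytes, had 987 and 1261 CPM in double-response cells, against 903 and 882 CPM in TNF-type-only cells, with both double-response values above. VCAM1, another adhesion molecule, had 393 and 391 CPM in double-response cells, against 594 and 598 CPM in TNF-type-only cells, with both below, as for LTB. FTH1, the ferritin heavy chain, had 9646 and 10635 CPM in double-response cells, against 12593 and 11840.1 CPM in TNF-type-only cells, and CTSC, a lysosomal protease, had 1345 and 1134 CPM in double-response cells, against 1549 and 1339 CPM in TNF-type-only cells. CCL2, which attracts monocytes, split the double-response side, with 238 and 701 CPM in double-response cells and 850.2 and 757 CPM in TNF-type-only cells.

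**Figure D4:**
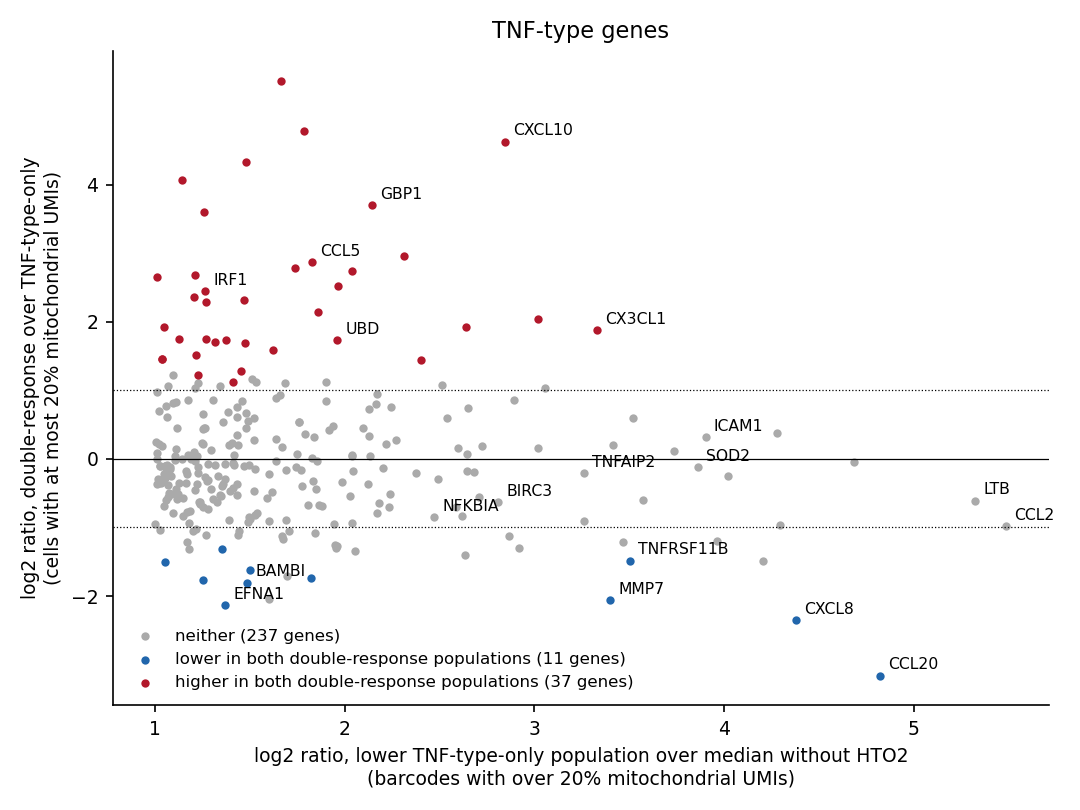
For 285 TNF-type genes, the log2 ratio of the lower TNF-type-only population over the median without HTO2, in barcodes with over 20% mitochondrial UMIs (horizontal), and the log2 ratio of double-response over TNF-type-only in the main cells (vertical). Red marks 37 genes called higher and blue 11 called lower; a grey point past a dotted line (ratio of 2 or 0.5) had a ratio that did not pass. LTB, CCL2 and ICAM1 lie near or below equality, CXCL10 and GBP1 far above, and CCL20 and CXCL8 far below.

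Of 30 measured NF-kB pathway members, 0 were called higher and 0 lower, which is near the 1.4% and 0.869% of all genes and so not a result about the pathway. Both double-response values were below in 10 and above in 6, beside 33% and 17.1% of all genes, and the median log2 ratio was -0.14. NFKBIA, the inhibitor that NF-kB induces against itself, had 506 and 666 CPM in double-response cells, against 1272 and 858 CPM in TNF-type-only cells, with both double-response values below. TNFAIP3, the A20 enzyme that shuts the pathway down, had 58.4 and 64.8 CPM in double-response cells, against 144 and 92.4 CPM in TNF-type-only cells, and BIRC3, a survival factor, had 334 and 308 CPM in double-response cells, against 557 and 443 CPM in TNF-type-only cells, again with both below. RELA, the subunit that activates transcription, had 78.4 and 100.5 CPM in double-response cells, against 60.0 and 54.5 CPM in TNF-type-only cells, with both above, while RELB had 84.3 and 90.8 CPM in double-response cells, against 96.8 and 94.6 CPM in TNF-type-only cells and NFKB1 had 80.5 and 126 CPM in double-response cells, against 112 and 98.8 CPM in TNF-type-only cells. The summed level was 5171 and 6549 CPM in double-response cells and 7813 and 6257 CPM in TNF-type-only cells, so the sides overlapped, and all 4 were above the 1332 to 1953 CPM of the populations without HTO2.

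CCL20, CXCL8 and 9 further TNF-type genes were lower in double-response cells. CCL20, which attracts cells with CCR6, had 6.49 and 30.7 CPM in double-response cells, against 126 and 126 CPM in TNF-type-only cells, and all 4 ratios were 0.243 or less (interval 0.189 to 0.309 for the weakest). CXCL8 (interleukin 8), which attracts neutrophils, had 28.1 and 79.5 CPM in double-response cells, against 264 and 219 CPM in TNF-type-only cells, at 0.363 or less (interval 0.309 to 0.423). Within the double-response side HTO2+HTO9 was several times HTO2+HTO8 for both, but neither reached the TNF-type-only level. CXCL1, CXCL2 and CXCL3, which act on the same receptors as CXCL8, were not called. Each still had both double-response values below both TNF-type-only values, with weakest ratios of 0.689, 0.861 and 0.866. CXCL1 had 37.3 and 69.4 CPM in double-response cells, against 181 and 101 CPM in TNF-type-only cells. MMP7, a matrix protease, had 76.7 and 69.8 CPM in double-response cells, against 369.7 and 252 CPM in TNF-type-only cells, at 0.304 or less. EFNA1, an ephrin ligand, had 10.8 and 22.9 CPM in double-response cells, against 72.5 and 66.0 CPM in TNF-type-only cells, and TNFRSF11B, the decoy receptor osteoprotegerin, had 29.7 and 34.9 CPM in double-response cells, against 115 and 70.5 CPM in TNF-type-only cells. BAMBI, a decoy receptor for TGF-beta signalling, had 10.8 and 6.98 CPM in double-response cells, against 32.2 and 28.6 CPM in TNF-type-only cells. The remaining lower genes of the TNF type were GOLGA7B, LOXL4, RASSF9, SRCIN1 and WFDC3. For CCL20, CXCL8 and MMP7 the double-response values were still above the medians without HTO2, which were 1.87, 8.03 and 32.0 CPM.

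Most of the 100 lower genes were not of the TNF type. In the main cells, with the floor of 3 UMIs, both TNF-type-only populations were under 2 times the median without HTO2 in 73 of them. In 19 both were at 2 times it or more. In 56 both double-response values were below every population without HTO2. The share of all genes was not counted for this, so the 56 is not read as a result. The floor stood at up to 3.92 CPM without HTO2, against 1.62 and 1.16 CPM in double-response populations, which helps genes with few UMIs to pass. Hypoxia genes were prominent among the 100 lower genes, with 8 of 22 measured called lower and 0 higher, beside 0.869% of all genes called lower. Of the 22, 18 were below without overlap (33% of all genes), and the median log2 ratio was -0.83. NDRG1, a hypoxia-induced gene, had 9.73 and 8.15 CPM in double-response cells, against 47.4 and 74.7 CPM in TNF-type-only cells, at 0.205 or less (interval 0.119 to 0.334). ANGPTL4, a secreted inhibitor of lipoprotein lipase, had 12.97 and 15.5 CPM in double-response cells, against 45.5 and 77.8 CPM in TNF-type-only cells, and the glucose transporter SLC2A1 had 25.4 and 22.9 CPM in double-response cells, against 54.0 and 71.0 CPM in TNF-type-only cells. CA9, HK2, LOX, P4HA1 and PDK1 were the other members called lower. LDHA, the member with the most UMIs, had 659 and 681 CPM in double-response cells, against 1156 and 1178 CPM in TNF-type-only cells, with both values below but not called. Summed, the list had 1939.7 and 2080.0 CPM in double-response cells and 3198 and 3277 CPM in TNF-type-only cells, and the populations without HTO2 ranged over 2214 to 3792 CPM, so both double-response sums were below all of them and both TNF-type-only sums within them.

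Outside the chosen TNF-type genes and the hypoxia list, SERPINA5, STC2, B4GALT6, GPR146, TREM1, PTGS2, BAALC-AS1, ANG and ENO2 were among the 15 lower genes with the smallest ratios. In the main cells the lower TNF-type-only levels of SERPINA5, TREM1 and PTGS2 were 2.31, 2.21 and 2.11 times the median without HTO2. They missed the TNF type in the left-out barcodes, at 1.55, 0.649 and 0.649 times it. TREM1 and PTGS2 may stand at the floor of 3 UMIs there. PTGS2, the inducible cyclooxygenase, had 0 and 1.16 CPM in double-response cells, against 5.45 and 4.77 CPM in TNF-type-only cells on 40 UMIs over the 4 populations, and STC2, a secreted glycoprotein, had 2.16 and 1.94 CPM in double-response cells, against 7.36 and 9.55 CPM in TNF-type-only cells on 70. Of these, STC2, B4GALT6, GPR146, TREM1, PTGS2 and BAALC-AS1 changed direction with a stricter cell filter or in the left-out barcodes. Sums under 3 UMIs were set to 3 in these settings too, and this floor is a higher CPM in populations with fewer UMIs. STC2, TREM1 and PTGS2 shared a left-out weakest ratio of 2.91. Genes this low are at or near the floor, so their change of direction is not read as a change in expression.

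The remaining lists had few calls. Of 24 measured acute phase and complement genes, 3 were called higher (SERPING1, C1S and C1R, of the first complement step) and 1 lower (DEFB1), beside 1.4% and 0.869% of all genes. SERPING1, the C1 inhibitor, had 35.1 and 27.5 CPM in double-response cells, against 2.18 and 5.05 CPM in TNF-type-only cells. SAA1, an acute phase protein, had 1171 and 1215 CPM in double-response cells, against 741 and 582 CPM in TNF-type-only cells, and LCN2, an iron-scavenging defence protein, had 607 and 1164 CPM in double-response cells, against 1419 and 1292 CPM in TNF-type-only cells, neither called. Of 16 caspase and lytic death genes, CASP1 and IFI16 were called higher, beside 1.4% of all genes, and 12 had both double-response values above, beside 17.1% of all genes. Immediate early, p53, S phase, G2 and M phase, unfolded protein, cholesterol, ribosomal and mitochondrially encoded lists had 0 calls in either direction. This is near the 1.4% and 0.869% of all genes and so not a result about these lists. Both double-response values were below in 19 of 20 ribosomal and 11 of 20 S phase genes, beside 33% of all genes, and above in 0 of either. In the immediate early list both were above in 11 of 22, beside 17.1% of all genes, and below in 5. S phase genes summed to 286 and 458 CPM in double-response cells and 458 and 513 CPM in TNF-type-only cells, and G2 and M phase genes to 758 and 917 CPM and 922 and 1188 CPM. Of 19 epithelial genes 1 (PAX8) was called lower, beside 0.869% of all genes, and KRT19 had 303 and 312 CPM in double-response cells, against 582 and 640.3 CPM in TNF-type-only cells. Of 10 mesenchymal and matrix genes MMP7 was called lower, beside 0.869% of all genes.

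Cell by cell, both sets of genes were found in the same cells. Each cell was thinned to 4000 UMIs, and the UMIs of 39 interferon-list genes and of 69 genes of the NF-kB and TNF-induced lists, with shared genes left out, were counted per 10000. The interferon list had a median of 290 and 230 in double-response cells, against 30 and 30 in TNF-type-only cells, and 17.5 without HTO2. The TNF lists had a median of 135 and 140 in double-response cells, against 152.5 and 122.5 in TNF-type-only cells, and 22.5 without HTO2. The TNF-induced list holds CCL5, IL32, TNFSF10, TNFSF13B and CX3CL1, all called higher in double-response cells. Those of them that are not shared genes count in this score and in the shares below. Similar medians therefore do not show an unchanged TNF programme. Cutoffs were the 90th percentile of TNF-type-only cells for the interferon list (65) and of cells without HTO2 for the TNF lists (45). Both were exceeded in 93.9% and 84.5% of double-response cells, against 8.70% and 10.2% of TNF-type-only cells. In HTO2+HTO9, 12.4% of cells exceeded the TNF cutoff alone, against 2.23% in HTO2+HTO8. In HTO2+HTO7, 18.3% exceeded neither, against 2.03% in HTO2+HTO6. The share of TNF-type-only cells above the interferon cutoff is set near 10% by the cutoff itself, and the interferon list holds the markers that chose the sides. These are ranges set by cutoffs, not cell types.

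**Figure D5:**
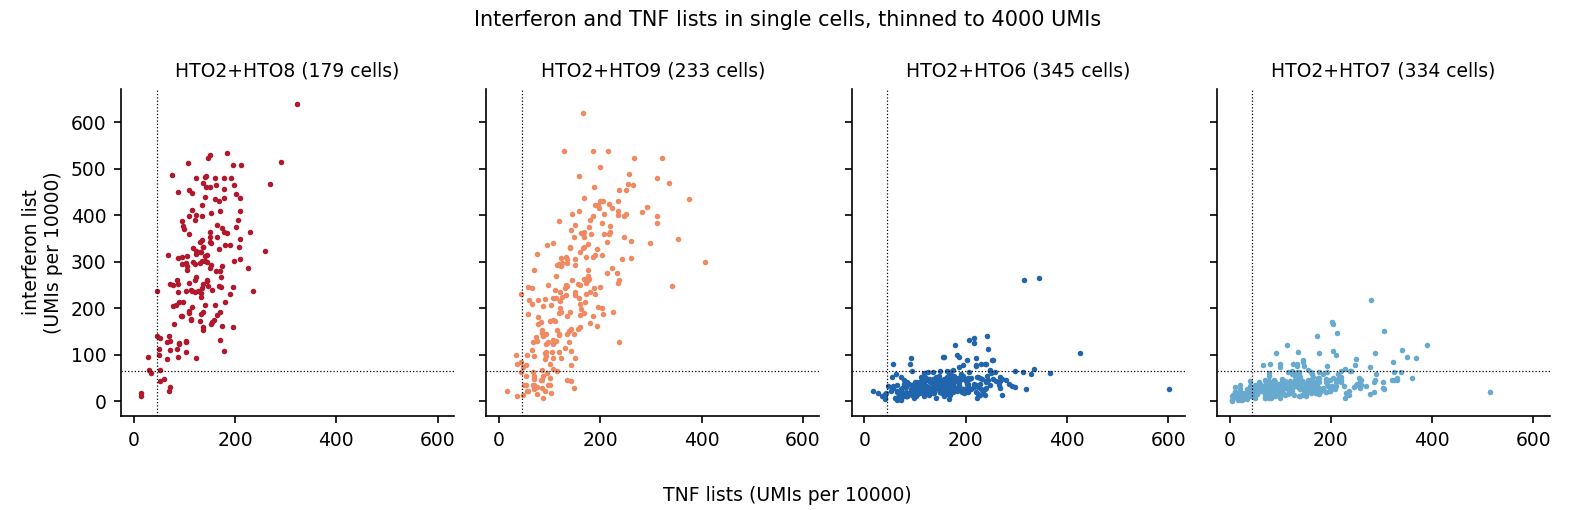
UMIs per 10000 of the interferon list (vertical) against the TNF lists (horizontal) in single cells thinned to 4000 UMIs, with 1 panel per population, double-response populations on the left, and dotted lines at the cutoffs of 65 and 45. Double-response cells spread upwards from the TNF-only range, most of them above both lines (93.9% and 84.5%). TNF-type-only cells lie mostly below the horizontal line.

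The same genes were read in the barcodes the rule had left out for over 20% and at most 50% mitochondrial UMIs, which held 99 and 171 double-response barcodes and 341 and 266 TNF-type-only barcodes. There 1.19% of 9818 measured genes were higher and 0.652% lower by the same thresholds. Of the 161 higher genes, 128 were measured, 90 were called higher again, 125 had both double-response values above and 0 were called lower. Of the 100 lower genes, 63 were measured, 13 were called lower again, 47 had both values below and 0 were called higher. The share of all genes without overlap was not counted in these barcodes, so the 125 and the 47 are not read as results. The 13 included CCL20, CXCL8, MMP7, EFNA1, TNFRSF11B and BAMBI, and none of the 8 lower hypoxia genes. The weakest ratio there was 0.504 for NDRG1, and it was over 1 for SLC2A1 (1.04), HK2 (1.46) and PDK1 (1.496), so these 3 were not below throughout. HK2, with 106 UMIs over the 4 populations in the main cells, may stand at the floor of 3 UMIs there. The interferon side was thus seen again for most genes, and the lower side for a minority. HTO2+HTO8 held 653957 UMIs there, against 1850271 in the main cells, so the floor of 3 UMIs stood at a higher CPM. Some lower genes with few UMIs could not reach a ratio of 0.5 for that reason. The counts of the higher and lower genes seen again are therefore not comparable.

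Promoter sequences show which of the letters known from interferon and NF-kB control stand before these genes. They come from RefSeq on GRCh38.p14, as the 250 bases before the annotated start, and 109 of 161 higher genes, 74 of 100 lower genes, 204 of 285 TNF-type genes and 8953 of all 11514 measured genes had one. Searched on both strands were the interferon-stimulated response element (ISRE), as GAAA and GAAA with any 2 bases between them, the gamma-activated sequence (GAS), as TTCNNNGAA, and the NF-kB site, as GGG and either TTTCC or TTCCC with any 2 bases between them. Matches of different motifs may overlap. The ISRE letters were in 17.4% of promoters of higher genes, 0% of lower genes, 8.82% of TNF-type genes and 2.38% of all measured genes. The GAS letters were in 13.8%, 6.76%, 10.8% and 5.61% of the same groups in that order. The NF-kB letters were in 9.17% of higher, 4.05% of lower, 19.6% of TNF-type and 4.57% of all genes. Among the higher genes, those raised further held NF-kB letters in 30.4% and ISRE letters in 43.5% of 23 promoters, and the added ones in 3.61% and 10.8% of 83. A match is a description of letters and not of binding, and a promoter without a match says only that these letters are not in this window.

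The 6 promoters below are shown because they belong to higher genes of the added class (CXCL9) and of the raised further class (CXCL10, GBP1, IRF1 and CD274) and to a lower gene of the TNF type (CCL20). Each runs 5′ to 3′ on the strand of its gene, and capitals mark matched letters. CXCL9 (chr4:76007510-76007759, minus strand) holds an ISRE match, CXCL10 (chr4:76023498-76023747, minus strand) an ISRE and an NF-kB match in that order, and GBP1 (chr1:89065209-89065458, minus strand) an ISRE match on the opposite strand. IRF1 (chr5:132490774-132491023, minus strand) holds a GAS match, CD274 (chr9:5450292-5450541, plus strand) overlapping ISRE matches on the opposite strand and a GAS match, and CCL20 (chr2:227813592-227813841, plus strand), which was lower in double-response cells, overlapping NF-kB matches on the opposite strand.
CXCL9: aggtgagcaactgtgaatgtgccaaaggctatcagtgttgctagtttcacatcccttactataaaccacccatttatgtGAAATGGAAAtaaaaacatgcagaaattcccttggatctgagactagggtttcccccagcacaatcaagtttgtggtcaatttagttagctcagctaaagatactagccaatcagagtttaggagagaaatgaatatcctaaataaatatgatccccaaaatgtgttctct
CXCL10: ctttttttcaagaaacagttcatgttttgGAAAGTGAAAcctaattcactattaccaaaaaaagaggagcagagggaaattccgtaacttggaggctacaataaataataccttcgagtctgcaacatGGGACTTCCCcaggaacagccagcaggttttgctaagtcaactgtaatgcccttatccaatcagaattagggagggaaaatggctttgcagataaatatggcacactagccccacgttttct
GBP1: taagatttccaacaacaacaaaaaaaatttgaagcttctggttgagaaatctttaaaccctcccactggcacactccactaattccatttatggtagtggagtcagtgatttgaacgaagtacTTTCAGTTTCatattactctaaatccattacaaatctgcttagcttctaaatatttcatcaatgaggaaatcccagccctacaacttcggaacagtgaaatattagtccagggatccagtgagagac
IRF1: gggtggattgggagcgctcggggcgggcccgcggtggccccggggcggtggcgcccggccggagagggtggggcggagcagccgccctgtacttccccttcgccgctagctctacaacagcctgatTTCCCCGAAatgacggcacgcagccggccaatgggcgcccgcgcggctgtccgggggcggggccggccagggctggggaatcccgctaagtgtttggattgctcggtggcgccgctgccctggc
CD274: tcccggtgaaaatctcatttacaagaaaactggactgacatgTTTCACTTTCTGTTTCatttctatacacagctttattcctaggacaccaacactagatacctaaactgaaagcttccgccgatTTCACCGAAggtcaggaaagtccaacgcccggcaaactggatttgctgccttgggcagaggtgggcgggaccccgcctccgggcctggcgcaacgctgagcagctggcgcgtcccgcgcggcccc
CCL20: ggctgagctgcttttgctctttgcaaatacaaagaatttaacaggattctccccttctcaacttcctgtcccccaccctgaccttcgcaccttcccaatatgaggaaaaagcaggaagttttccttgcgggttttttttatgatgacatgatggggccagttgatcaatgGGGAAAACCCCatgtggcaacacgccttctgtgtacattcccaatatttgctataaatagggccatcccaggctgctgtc
CXCL10, with both kinds of match, had 6086 and 6480.1 CPM in double-response cells and 281 and 229 CPM in TNF-type-only cells. CXCL9, with an ISRE match and none for NF-kB by these letters, had 821 and 469.8 CPM against 1.91 and 1.40 CPM.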

How the data were processed

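The authors deposited whole-number UMI counts of 36601 genes and 10 hashtags in 9083 barcodes of 1 pooled library, not normalised. The matrix came from Cell Ranger 5.0.1, per the file headers. Version 2.1.1 of that program and the build GRCh38 stand in the submitters' processing notes. No source used here names the annotation behind the counts. Columns of other samples numbered 0.

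Barcodes were assigned to hashtag pairs and filtered as the report describes, and counts were summed per population and scaled to UMIs per 1000000 (CPM). No doublet caller was run. Barcodes with another strong hashtag beside the pair were left out by the rule, and doublets of 1 population cannot be seen this way. Intervals are exact Poisson for sums and exact Clopper-Pearson for shares of cells, at 95%, and cover counting error only. PCR and droplet losses are not in them. With populations chosen by read-out, 1 library and no map to treatments, no test was made and no p-value is given.

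Members and lists were chosen with earlier results of these data known. The rule for named genes took the 4 markers, the 20 higher and 15 lower genes with the most extreme weakest ratios, the 10 genes with most UMIs among those raised further or lying between, the 3 members with most UMIs of each list, and 6 TNF-type genes with most UMIs in each direction. Coordinates came from GENCODE, in which 34616 of the gene identifiers were found. Some genes that the rules name are not reported here. Alternatives were other cell filters, other hashtag limits, other scalings, thinning, other thresholds and leaving out each population. The fold rule was tested on simulated data. Scripts ran under Python 3.11.15 with pandas 2.3.3, numpy 2.4.6, scipy 1.17.1 and, for figures, matplotlib 3.10.9.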

Additional observations from a re-analysis of the deposited data

Results flagged for a closer look

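HTO1 and HTO10 lay outside the hashtags used for pairs and still had counts in the cells compared. HTO1 had 6 and 10 counts in HTO2+HTO8 and HTO2+HTO9, against 4 and 7 counts in HTO2+HTO6 and HTO2+HTO7. HTO10 had 14 and 37 counts in HTO2+HTO8 and HTO2+HTO9, against 809 and 66 counts in HTO2+HTO6 and HTO2+HTO7. Over the 8 populations without HTO2, HTO1 had 0 to 2 counts and HTO10 had 6 to 698.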

How the results depend on the processing

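Of 1526 values recomputed for 109 single genes, 1348 moved by less than the spread, 170 moved further and 8 changed direction. Of 362 values for 44 other results, 279 stayed within the limit set for that kind of result, 83 moved further and 0 changed direction. That 0 is not read as a result. Counts of genes and shares of cells have no direction to change. Most lists passed neither threshold in their summed level, so they had no called direction either. The cause of the moves was not tested except where the setting itself asks for fewer or stricter ratios. The count of 161 higher genes was 104 with a strict cell filter (at least 1000 genes, at most 10% mitochondrial UMIs), 365 at 1.5 times, 72 at 3 times, 297 with the populations of a side summed, and 191 to 239 with 1 population left out. The count of 100 lower genes was 30 with the strict filter, 64 in the left-out barcodes, 65 after thinning, 41 at 100 UMIs or more, 404 at 1.5 times, 8 at 3 times, 348 when summed, and 149 to 500 with 1 population left out. Of the higher genes, 72 were shared with the strict filter and 90 with the left-out barcodes, and of the lower genes 10 and 13.

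The log2 ratio of the interferon chemokine list (2.87) was 3.06 with the strict filter, 2.66 in the left-out barcodes and 2.75 to 2.99 with 1 population left out. MHC class II (2.08) was 2.52 with the strict filter and 1.80 to 2.31, MHC class I (0.64) was 0.47 in the left-out barcodes and 0.49 to 0.78, and the shared interferon-stimulated genes (0.73) were 0.97 with the strict filter and 0.61 to 0.85. The NF-kB list was -0.44 to -0.09. The TNF-induced list (0.29) was 0.058 in the left-out barcodes, 0.38 with the trimmed mean of M values and 0.21 to 0.38. The level of hypoxia genes (-0.69) was -1.32 with the strict filter, -0.46 in the left-out barcodes, -0.61 without a mitochondrial limit, -0.60 with the trimmed mean of M values, -0.82 after thinning, -0.85 with every cell weighing the same and -0.74 to -0.64.

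TNF-type genes numbered 103 (4 higher, 6 lower) against the highest population without HTO2, by which 0 genes were raised further, and 122 (16 higher, 5 lower) at 3 times the median. The lower count was 19 when chosen in the same cells and 18 with the barcodes' roles exchanged. After thinning, the share of cells with a UMI was 64.2% and 39.9% for CXCL9 in double-response cells, against 0.580% in HTO2+HTO6; for IDO1 it was 28.7% and 25.1% in TNF-type-only cells; for IRF1 87.2% and 88.0%, against 64.1% and 59.0%; and for CD274 19.6% and 19.3%, against 1.74% in HTO2+HTO6. The log2 ratio changed direction for STC2 (0.091 in the left-out barcodes), B4GALT6 (0.33 strict, 0.055 left-out), GPR146 (0.83 strict), TREM1 (0.69 left-out), PTGS2 (0.33 strict, 0.51 left-out) and BAALC-AS1 (1.04 strict). At such low sums the floor of 3 UMIs enters these ratios, so they are not read as a change in expression. No paired analysis was possible because all cells came from 1 library and the populations carry no replicate number. Depth limits single genes to a floor of 3 UMIs, which was 1.62 and 1.16 CPM in double-response populations and 0.818 and 0.842 CPM in TNF-type-only populations.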
